A study of Homo sapiens with 9 samples.

Results

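The 10 genes described here encode inhibitors of cyclin-dependent kinases (CDKs), D-type and E-type cyclins, and MDM2. They are CDKN1A, CDKN1B, CDKN1C, CDKN2A, CDKN2B, CDKN2C, CCND1, CCND3, CCNE2 and MDM2. They were taken by symbol from a table of raw counts for 60715 genes, and all 10 were found there, 1 row each. The cells were MDA-MB-231, an established breast cancer line of the triple negative type, transduced with lentivirus and then sorted by FACS. According to the labels, the groups carried RFP, a red fluorescent protein that served as control (n = 3), KCNJ2(Kir2.1) in a substituted form joined to EGFP (n = 3), or Kv1.5 in a construct with EGFP (n = 2, replicates 2 and 3). Kir2.1 and Kv1.5 are potassium channels, and every group had been through virus and sorting. The replicates are cultures of each line. No source used here says whether each had a transduction of its own, so p-values measure the spread between these cultures.

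CDKs drive a cell through its division cycle and work only when bound to a cyclin. D cyclins act with CDK4 and CDK6 early in G1, E cyclins act with CDK2 at the entry to DNA replication, and the retinoblastoma protein is a main substrate of both. The INK4 inhibitors (CDKN2A, CDKN2B, CDKN2C) bind CDK4 and CDK6, and the CIP/KIP inhibitors (CDKN1A, CDKN1B, CDKN1C, encoding p21, p27 and p57) bind cyclin and CDK complexes more broadly. MDM2 is a ubiquitin ligase that marks regulators of growth arrest for destruction. MDA-MB-231 cells are known to have lost the CDKN2A region of chromosome 9.

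Library totals ran from 30970235 to 42753422 counts. KCNJ2, which encodes Kir2.1, stood at 842.7 to 1384 CPM (counts scaled to library size, with TMM factors that even out composition) in the Kir2.1 libraries and at no more than 0.105 CPM in any other. For KCNA5, which encodes Kv1.5, both libraries labelled Kv1.5 were at 0 counts, so that label was not borne out by the gene and every direction below belongs to the libraries labelled Kv1.5. Of the markers typical of the line, VIM, CD44, AXL, CAV1 and EGFR summed to 4900 to 6660 CPM in RFP and 5777 to 6803 in Kir2.1. In the libraries labelled Kv1.5 they summed to 3701 to 4718 CPM. VIM and CAV1 were called lower there than in RFP and than in Kir2.1, at the threshold given below, and the other 3 were not called. ESR1 and PGR, the hormone receptors that triple negative tumours lack, stayed at or below 0.077 CPM, and CDH1 at or below 0.184 CPM. Their list also held ERBB2 and EPCAM, which made up nearly all of its sum. It summed to 65.0 to 79.7 CPM in RFP, 84.7 to 86.8 in Kir2.1 and 70.1 to 77.8 in the libraries labelled Kv1.5. EPCAM was called higher in the last group than in Kir2.1, at the threshold given below. The 5 leukocyte markers summed to at most 0.937 CPM. The fibroblast list differed between groups, at 187 to 200 CPM in RFP, 10.7 to 11.9 in Kir2.1 and 4.61 to 8.81 in the libraries labelled Kv1.5, nearly all of it COL1A1 in RFP, with DCN at or below 0.0288 CPM and COL3A1 at or below 0.135 CPM in every library. A list of basal epithelial genes typical of MDA-MB-468 cells summed to 363 to 450, 116 to 128 and 82.1 to 136 CPM in the same order, led by KRT81 in RFP and Kir2.1 and by LCN2 in the libraries labelled Kv1.5, with KRT5 at or below 0.259 CPM. The part of these lists in the results below was not tested.

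Of the 10 genes, 8 had enough counts to be tested. The genes were chosen with earlier results of these data known, so their counts beside all genes are no test of the set. In Kir2.1 against RFP, 5 of these 8 passed an adjusted p under 0.05 (edgeR's quasi-likelihood F-test with Benjamini-Hochberg adjustment over 16687 genes), where 20.5% of all genes tested did. CDKN1A, CDKN1C and CCND3 rose, and CDKN1B and MDM2 fell, beside 12.2% of all genes called higher and 8.26% called lower. In the libraries labelled Kv1.5 against RFP, 7 of 8 passed, where 33.7% of all genes did. CDKN1A and CDKN1C rose, while CDKN1B, CDKN2C, CCND1, CCNE2 and MDM2 fell, beside 18.1% of all genes called higher and 15.6% called lower. Between the Kir2.1 libraries and those labelled Kv1.5, 2 of 8 passed, where 16.8% of all genes did. CDKN1A was higher and CDKN2C lower in the libraries labelled Kv1.5, beside 8.79% of all genes called higher and 7.99% lower. The groups did not overlap for 7, 8 and 4 of the 8 genes in these comparisons, beside 44.7%, 54.2% and 47.7% of all genes. The median log2 fold change of the 8 genes was 0.01, -0.85 and -0.18 in these comparisons, beside -0.01, 0.02 and 0.01 over all genes tested. Both comparisons with RFP use the same 3 RFP libraries. In bulk RNA, fewer cells that express a gene and less of its RNA per cell cannot be told apart.

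**Figure D1:**
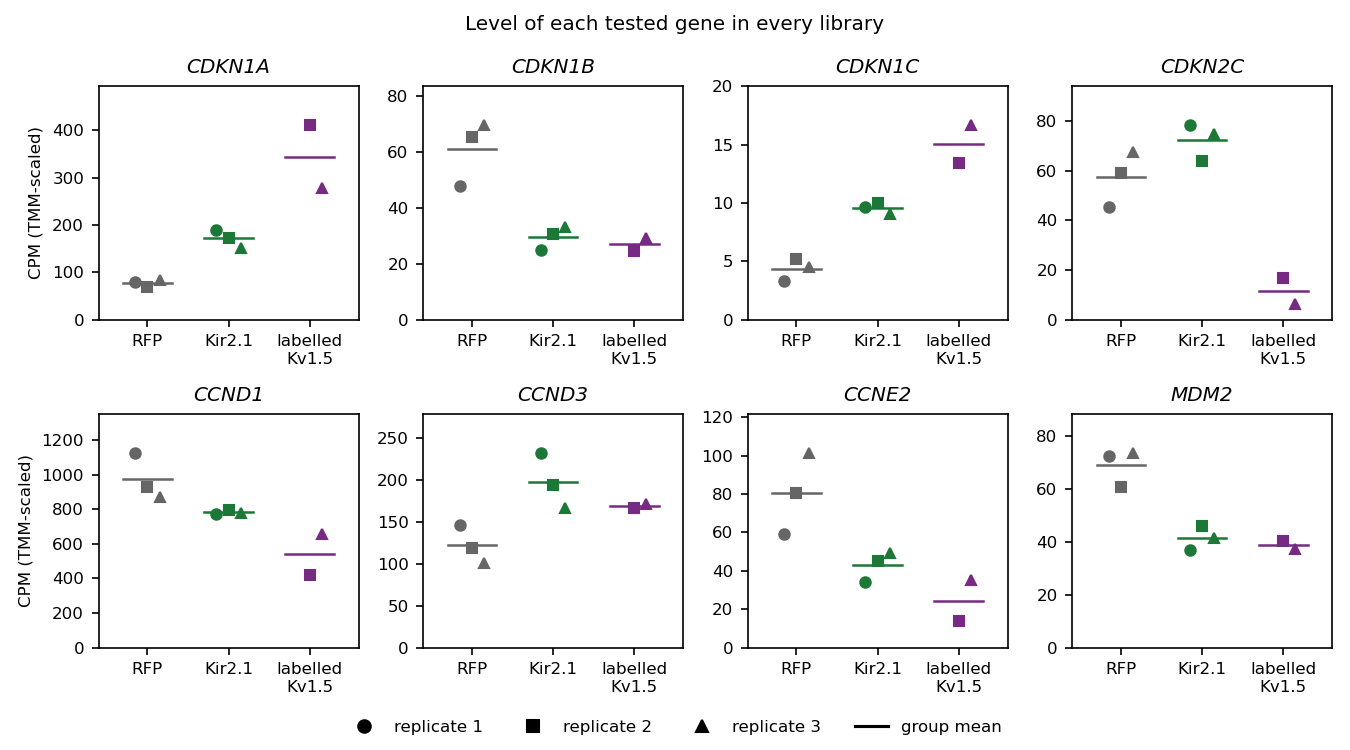
Level of each of the 8 tested genes in every library, in CPM on TMM-scaled libraries, on linear axes that start at 0. Points are libraries (shape gives the replicate) and lines are group means; CDKN1A steps up from RFP to Kir2.1 to the libraries labelled Kv1.5 without overlap, and CDKN2C is low in the libraries labelled Kv1.5 alone.

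Among the CIP/KIP inhibitors, CDKN1A and CDKN1B moved in opposite directions. CDKN1A (ENSG00000124762.14, chromosome 6, 36676460 to 36687339, GRCh38) stood at 80.2, 68.7 and 83.1 CPM in RFP, at 190, 173 and 152 CPM in Kir2.1, and at 411 and 277 CPM in those labelled Kv1.5. The 3 groups formed separate steps. The rise over RFP was 2.22-fold in Kir2.1 (log2 fold change 1.15, SE 0.19, edgeR adjusted p = 0.00141) and 4.45-fold in the libraries labelled Kv1.5 (2.15, SE 0.21, edgeR adjusted p = 2.25e-05). The difference between the latter and Kir2.1 was tested directly and also passed, at 2.01-fold (1.00, SE 0.21, edgeR adjusted p = 0.00846).

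CDKN1B (ENSG00000111276.11, chromosome 12, 12715058 to 12722371) stood at 47.7, 65.2 and 69.5 CPM in RFP, at 24.7, 30.6 and 33.1 CPM in Kir2.1, and at 24.6 and 29.1 CPM in those labelled Kv1.5. Each RFP library lay above every other library. CDKN1B fell by 1.05 on the log2 scale in Kir2.1 (SE 0.20, edgeR adjusted p = 0.00326) and by 1.18 in the libraries labelled Kv1.5 (SE 0.23, edgeR adjusted p = 0.00237). The direct difference between them was -0.13 (95% interval -0.62 to 0.36), an interval that does not show them to be alike.

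CDKN1C (ENSG00000129757.14, chromosome 11, 2883213 to 2885773), an imprinted gene and the least abundant of the 3, stood at 3.34, 5.20 and 4.52 CPM in RFP, at 9.67, 10.0 and 9.10 CPM in Kir2.1, and at 13.5 and 16.7 CPM in those labelled Kv1.5. The 3 groups did not overlap. The rise was 2.20-fold in Kir2.1 (log2 fold change 1.14, SE 0.24, edgeR adjusted p = 0.00486) and 3.46-fold in the libraries labelled Kv1.5 (1.79, SE 0.26, edgeR adjusted p = 0.00029). The step between them, 0.65, missed the threshold (SE 0.25, edgeR adjusted p = 0.0977).

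Per length of exon (RPKM), the make-up of the CIP/KIP transcripts shifted. In RFP, CDKN1A and CDKN1B were near each other, at 47.1% to 58.9% and 38.1% to 48.5% of the family's summed RPKM. In Kir2.1, CDKN1A held 76.3% to 83.1% and CDKN1B 11.7% to 18.0%. In the libraries labelled Kv1.5 these shares were 84.2% to 90.5% and 5.88% to 9.60%. The family's summed RPKM was 44.6 to 53.8 in RFP, 65.2 to 75.1 in Kir2.1 and 108 to 149 in the libraries labelled Kv1.5, so CDKN1A rose by more RPKM than CDKN1B lost.

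CDKN2A, which encodes both p16INK4a and p14ARF, and CDKN2B, which encodes p15INK4b, had next to no counts in any group. CDKN2A (ENSG00000147889.17, chromosome 9, 21967753 to 21995301) had 0 counts in all 8 libraries, which allows a level of up to 0.0262 CPM over the RFP group, 0.0289 over Kir2.1 and 0.0390 over the libraries labelled Kv1.5 (3 counts over each group, counting error only). CDKN2B (ENSG00000147883.12, chromosome 9, 22002903 to 22009363) had 3 counts in all, 1 each in RFP replicate 1 and both libraries labelled Kv1.5. Neither entered the test.

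The genes around them were also without counts. From the end of FOCAD at 20995955 to the start of TUSC1 at 25676389, the nearest genes on either side with a mean of at least 1 CPM, the annotation holds 25 protein-coding genes in 4.68 Mb. By this choice of the stretch, each of them has a mean below 1 CPM. Of these 25, 24 had 0 counts in every library, and the remaining one was CDKN2B. Most of the 24 are interferon genes, IFNE among them, and CDKN2A itself is counted. The others include MTAP, a methylthioadenosine phosphorylase that most cells express, KLHL9, DMRTA1 and ELAVL2. The share of all protein-coding genes at 0 counts was not computed to set beside this. CDKN2A-DT had 0 counts as well. CDKN2B-AS1, the antisense RNA that spans CDKN2B, had 8 to 54 counts per library, the most in RFP replicate 3, and did not pass in any comparison. Outside the stretch, FOCAD stood at 1.26 to 2.47 CPM and did not pass either. MLLT3, beyond FOCAD, fell by 1.60 on the log2 scale in the libraries labelled Kv1.5 against RFP (SE 0.30, edgeR adjusted p = 0.00167) and was lower by 1.30 there than in Kir2.1 (SE 0.29, edgeR adjusted p = 0.0121), the latter a difference that missed the threshold without Kv1.5 replicate 3 (edgeR adjusted p = 0.076).

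**Figure D2:**
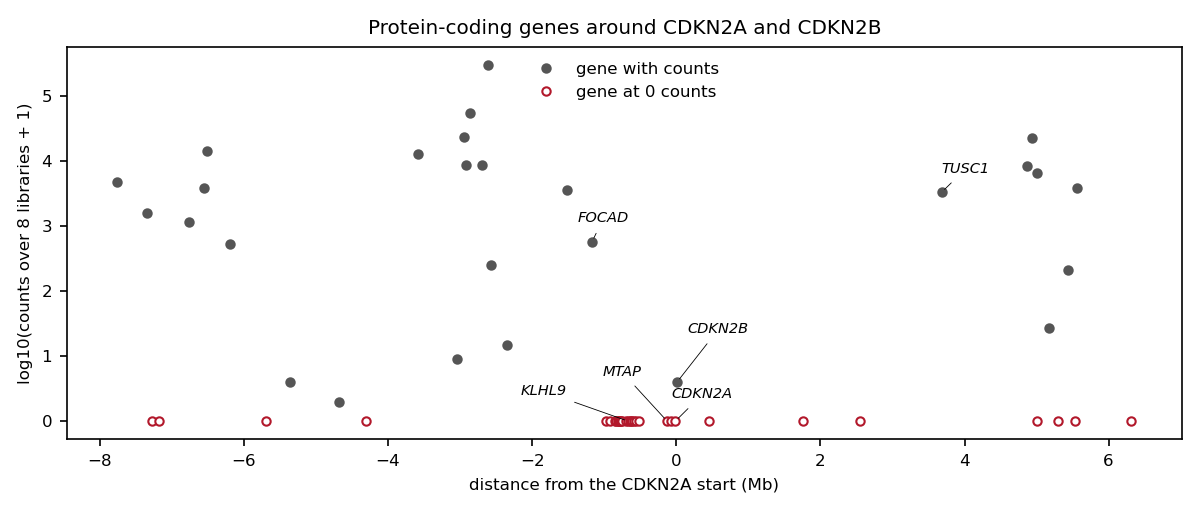
Summed counts over the 8 libraries (log10 of counts + 1) of protein-coding genes against their distance from the CDKN2A start in Mb. Open red points are genes with 0 counts; between FOCAD and TUSC1, 24 of 25 genes lie at 0 and CDKN2B has 3 counts.

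CDKN2C, the remaining INK4 inhibitor among the 10 genes (p18, ENSG00000123080.12, chromosome 1, 50960745 to 50974633), was expressed and set the libraries labelled Kv1.5 apart. It stood at 45.5, 59.2 and 67.6 CPM in RFP, at 78.5, 64.1 and 74.7 CPM in Kir2.1, and at 16.7 and 6.43 CPM in those labelled Kv1.5. RFP and Kir2.1 overlapped, and the other 2 libraries lay below all 6. The fall was 4.96-fold against RFP (log2 fold change -2.31, SE 0.35, edgeR adjusted p = 0.000473) and 6.25-fold against Kir2.1 (-2.64, SE 0.36, edgeR adjusted p = 0.000807). In Kir2.1 against RFP the change was 0.33 (95% interval -0.29 to 0.96) and did not pass. The size of the fall rested on which library was kept: -1.78 against RFP from replicate 2 and -3.15 from replicate 3 of the libraries labelled Kv1.5, both past the threshold. CDKN2D, the fourth INK4 gene, behaved otherwise: it rose in Kir2.1 against RFP (0.84, SE 0.20, edgeR adjusted p = 0.0105) and was at 0.54 in the libraries labelled Kv1.5, where it did not pass (edgeR adjusted p = 0.0736).

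Of the cyclins, CCND1 was by far the most abundant. CCND1 (ENSG00000110092.4, chromosome 11, 69641087 to 69654474), encoding cyclin D1, stood at 1128, 929 and 874 CPM in RFP, at 774, 796 and 777 CPM in Kir2.1, and at 417 and 660 CPM in those labelled Kv1.5. The 3 groups did not overlap, and the 2 libraries labelled Kv1.5 differed by 1.58-fold. CCND1 fell by 0.86 on the log2 scale in these libraries against RFP (SE 0.23, edgeR adjusted p = 0.0143). Without Kv1.5 replicate 2 that change was -0.56 and missed the threshold (edgeR adjusted p = 0.102). In Kir2.1 against RFP the value was -0.32 (95% interval -0.76 to 0.12) and did not pass. Against Kir2.1 the libraries labelled Kv1.5 were at -0.54 (SE 0.23, edgeR adjusted p = 0.131), and without Kv1.5 replicate 3 at -0.91 and past the threshold (edgeR adjusted p = 0.0442).

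CCND3 (ENSG00000112576.13, chromosome 6, 41934933 to 42050357), encoding cyclin D3, went the other way. It stood at 147, 119 and 101 CPM in RFP, at 233, 194 and 167 CPM in Kir2.1, and at 166 and 172 CPM in those labelled Kv1.5. The other 5 libraries lay above all 3 RFP libraries. The rise in Kir2.1 was 1.62-fold (log2 fold change 0.70, SE 0.19, edgeR adjusted p = 0.0241), and the call was lost without RFP replicate 2 or 3 and without Kir2.1 replicate 1 or 2 (edgeR adjusted p = 0.0716 to 0.0943). In the libraries labelled Kv1.5 the difference from RFP was 0.47 (SE 0.21, edgeR adjusted p = 0.111). Per length of exon, CCND1 made up 89.9% to 91.0% of the summed RPKM of CCND1, CCND2 and CCND3 in RFP, 79.7% to 84.6% in Kir2.1 and 74.7% to 81.0% in the libraries labelled Kv1.5. CCND2, the third D cyclin, stayed at 3.48 to 17.0 CPM and did not pass in any comparison.

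CCNE2 (ENSG00000175305.17, chromosome 8, 94879770 to 94896678), encoding cyclin E2, stood at 59.3, 80.5 and 102 CPM in RFP, at 34.0, 45.1 and 49.3 CPM in Kir2.1, and at 13.6 and 35.3 CPM in those labelled Kv1.5. Every RFP library lay above the other 5, while Kir2.1 overlapped the libraries labelled Kv1.5. The fall in the latter against RFP was 3.29-fold (log2 fold change -1.72, SE 0.37, edgeR adjusted p = 0.00435), with -1.18 from Kv1.5 replicate 3 alone and -2.56 from replicate 2 alone. In Kir2.1 against RFP the value was -0.91 and narrowly missed (SE 0.32, edgeR adjusted p = 0.06). CCNE2 missed in 10 of 17 alternatives as well, with values of -1.09 to -0.71 over the 17. It passed with DESeq2 (adjusted p = 0.0227), in a fit of these 2 groups alone (edgeR adjusted p = 0.012), with no filter on low counts (edgeR adjusted p = 0.00044), and without RFP replicate 1 or either library labelled Kv1.5 (edgeR adjusted p = 0.0112 to 0.0404). Against Kir2.1, the libraries labelled Kv1.5 were at -0.81 (SE 0.36, edgeR adjusted p = 0.144), at -1.66 without Kv1.5 replicate 3 (edgeR adjusted p = 0.0139) and at -0.28 without replicate 2 (edgeR adjusted p = 0.557). With no filter on low counts this difference passed (edgeR adjusted p = 0.0131).

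CCNE1, encoding cyclin E1, did not pass in any comparison, at 0.59, -0.09 and -0.68. CCNE2 held 69.1% to 78.9% of the RPKM of both E cyclins in RFP, 40.6% to 61.0% in Kir2.1 and 44.6% to 52.4% in the libraries labelled Kv1.5. Of the exon bases of CCNE2, 37.0% lie under exons of INTS8 on the opposite strand, and no source used here gives the strand setting of the counting. INTS8, an Integrator subunit, also fell in the libraries labelled Kv1.5 (-1.48 against RFP, SE 0.23, edgeR adjusted p = 0.000467), so the part of each in the other's counts cannot be told apart.

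MDM2 (ENSG00000135679.25, chromosome 12, 68808176 to 68850686) fell where CDKN1A rose. MDM2 stood at 72.2, 60.8 and 73.6 CPM in RFP, at 36.9, 45.7 and 41.5 CPM in Kir2.1, and at 40.1 and 37.2 CPM in those labelled Kv1.5. Every RFP library lay above the other 5. MDM2 fell by 0.73 on the log2 scale in Kir2.1 (SE 0.17, edgeR adjusted p = 0.0099) and by 0.83 in the libraries labelled Kv1.5 (SE 0.20, edgeR adjusted p = 0.0065). The direct difference between them was -0.10 (95% interval -0.52 to 0.32).

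The starts of these oppositely moving genes are shown so that their promoters can be compared. The stretches are RefSeq sequence on GRCh38.p14, plus strand, printed 5′ to 3′. Each begins 250 bases before a RefSeq start and ends where the next annotated exon of the gene begins. Matches to the GC box (GGGCGG, searched on both strands) are in capitals. The CDKN1A stretch is chr6:36678464-36678657, which lies inside the gene as annotated, whose start is at 36676460. Part of this stretch lies under DINOL (36677609 to 36678559), a noncoding RNA gene on the opposite strand. The MDM2 stretch, at the start inside the first intron, is chr12:68808767-68809001.
CDKN1A: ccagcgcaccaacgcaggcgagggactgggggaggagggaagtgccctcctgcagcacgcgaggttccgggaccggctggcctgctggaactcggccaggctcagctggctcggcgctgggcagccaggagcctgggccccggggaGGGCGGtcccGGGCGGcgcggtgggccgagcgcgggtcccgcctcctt
MDM2: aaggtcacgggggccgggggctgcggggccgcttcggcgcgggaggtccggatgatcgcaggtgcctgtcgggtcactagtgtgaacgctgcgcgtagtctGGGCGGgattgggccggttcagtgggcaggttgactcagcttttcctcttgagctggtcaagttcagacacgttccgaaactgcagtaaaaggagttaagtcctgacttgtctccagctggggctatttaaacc
The CDKN1A stretch of 194 bases held 2 GC boxes and the MDM2 stretch of 235 bases held 1. Of 35116 promoters in the RefSeq table, 33.8% and 40.7% held at least 1 in a stretch of the same length and place. The full 250 bases before the same RefSeq starts held 4 GC boxes for CDKN1A and 1 for MDM2, where 42.6% of promoters held at least 1. The table held promoters of 7 of the 10 genes. These matches describe letters in a window and say nothing of what binds there.

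**Figure D3:**
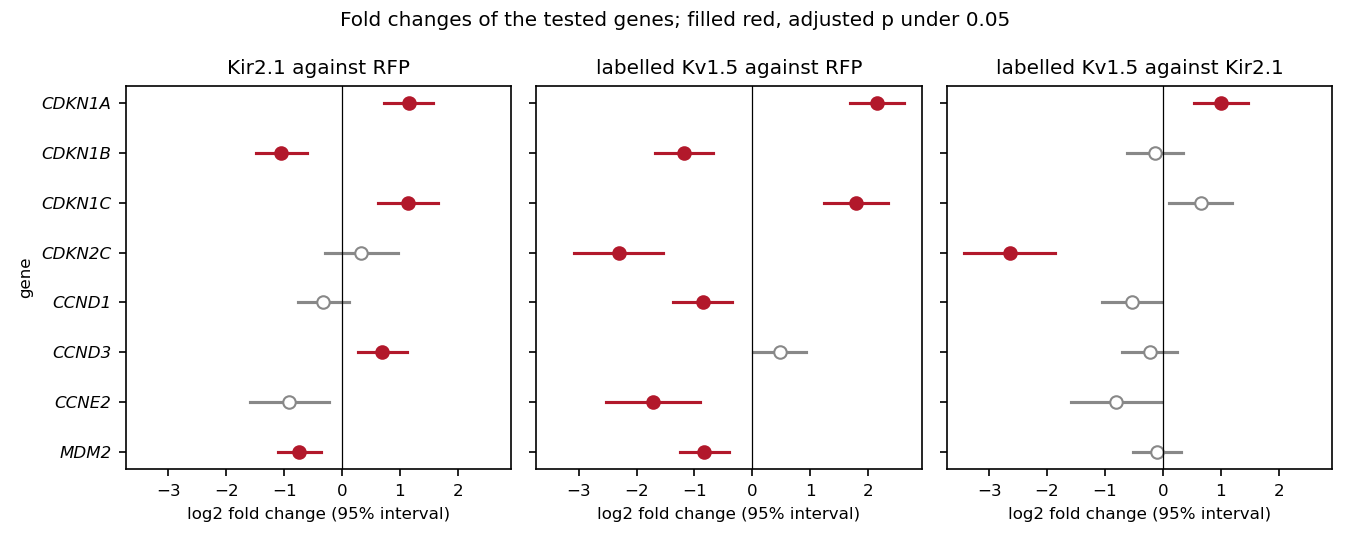
Log2 fold change of the 8 tested genes in the 3 comparisons, with 95% intervals from the edgeR fit; filled red points passed an adjusted p under 0.05. CDKN1A lies above 0 in all 3 panels (1.15, 2.15 and 1.00), and CDKN1B and MDM2 lie below 0 against RFP and near 0 between Kir2.1 and the libraries labelled Kv1.5.

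Ordered by level per length of exon in RFP, CCND1 came first at 202 ± 27.7 RPKM (SD, n = 3), far from the next. CDKN1A (25.3 ± 2.50), CDKN1B (21.6 ± 4.09), CCND3 (21.1 ± 3.96), CCNE2 (18.3 ± 4.82) and CDKN2C (17.3 ± 3.37) followed at levels that ran together within their spread. MDM2 (5.19 ± 0.531) and CDKN1C (1.76 ± 0.379) came last of the 8 tested genes, each apart from its neighbours, and CDKN2A and CDKN2B lay at or near 0. The order rests on the merged length of all annotated exons of each gene, which can exceed that of the transcripts in use. In the libraries labelled Kv1.5, CDKN1A had reached the level of CCND1: 113 ± 31.1 against 111 ± 35.5 RPKM (SD, n = 2). In these libraries CDKN1A was above CCND1 in replicate 2 and below it in replicate 3.

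Several of the 10 genes sat among neighbours that moved the same way, a comparison chosen after the values were seen. For each gene, the 25 measured genes on either side (mean of at least 5 CPM) were read from the same fit. Around CDKN1A, the median log2 fold change of the 50 neighbours was 0.59 in Kir2.1 and 0.73 in the libraries labelled Kv1.5 against RFP, where the median of all 10693 such genes was -0.01 and 0.00. CDKN1A itself lay above 41 and 47 of its 50 neighbours. Around CCND3, on the same arm and sharing 26 of those neighbours, the medians were 0.67 and 0.82, and CCND3 at 0.70 and 0.47 lay above only 26 and 14 of them.

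Around CDKN1B, the neighbours' medians were -0.64 and -0.60, with 45 and 42 of 50 below 0, and CDKN1B lay below 38 and 43 of them. Around MDM2, on the other arm of chromosome 12, they were -0.68 and -0.47, and MDM2 lay below 30 and 37 of 50. CDKN1C, at 1.79 in the libraries labelled Kv1.5, lay above all 50 of its neighbours (median -0.06). CDKN2C lay below all 50 of its own there, whose median was 0.56, and below all 50 in the direct comparison with Kir2.1. In Kir2.1 against RFP the neighbours of CDKN2C had a median of 0.41, with 47 of 50 above 0, beside 0.33 for CDKN2C itself. CCND1 lay below 47 of 50 in both comparisons with RFP (medians 0.35 and -0.09), and CCNE2 below 47 and 48 (medians -0.29 and -0.16, with 42 and 33 of 50 below 0). The part of such regional shifts in the changes of the 10 genes was not tested.

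**Figure D4:**
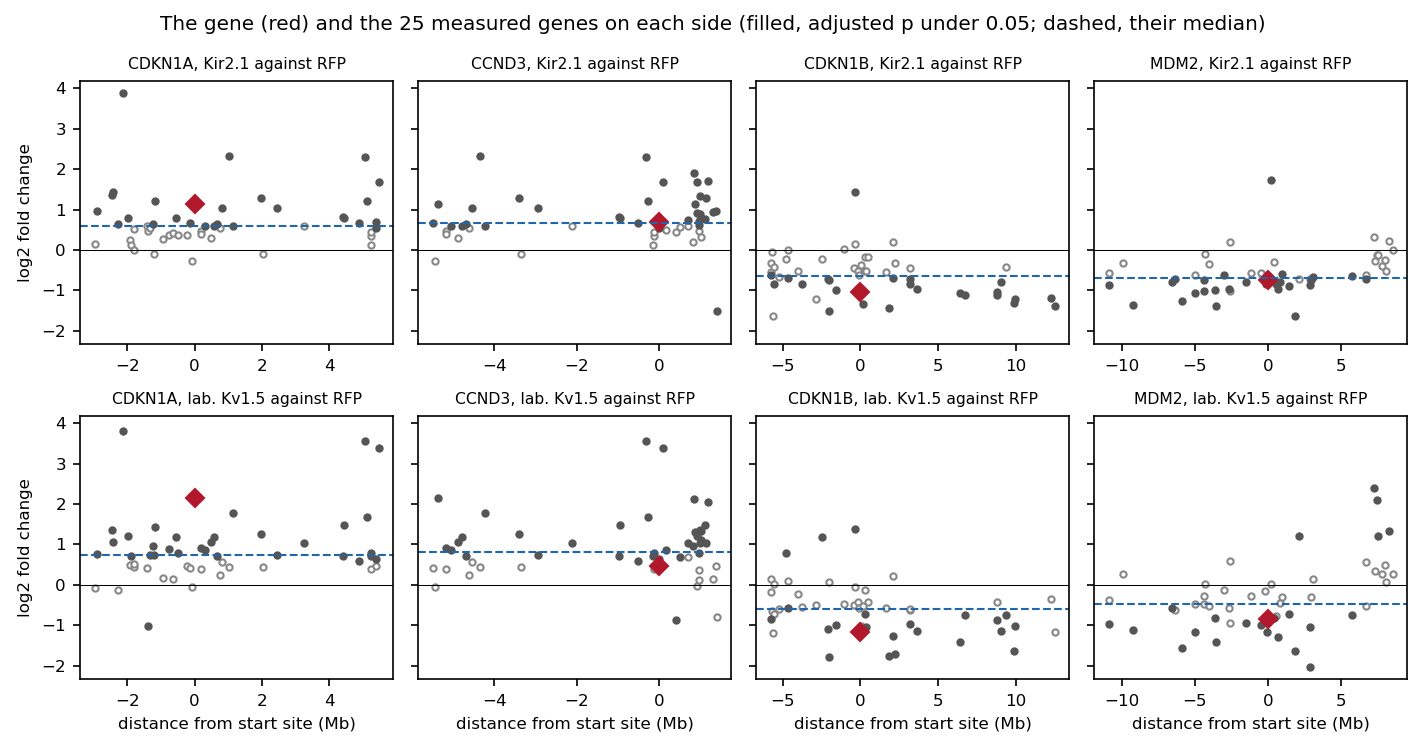
Log2 fold change against RFP of CDKN1A, CCND3, CDKN1B and MDM2 (red diamonds) and of the 25 measured genes on either side, by distance from the gene's start in Mb. Filled points passed an adjusted p under 0.05 and the dashed line is the neighbours' median; CCND3 and MDM2 lie near it in Kir2.1 (0.70 beside 0.67, and -0.73 beside -0.68), while CDKN1A lies well above it in the libraries labelled Kv1.5 (2.15 beside 0.73).

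Of 20 partner genes at the passage from G1 to S phase, 1 rose and 3 fell in Kir2.1 against RFP, and 2 rose and 9 fell in the libraries labelled Kv1.5, with medians of -0.35 and -0.41. These are 20% and 55% of the list, beside 20.5% and 33.7% of all genes. CDK2, the kinase of the E cyclins, fell in both, from 176 to 192 CPM in RFP to 92.3 to 100 CPM in Kir2.1 (-0.96, SE 0.16, edgeR adjusted p = 0.00146) and 65.1 to 80.6 CPM in those labelled Kv1.5 (-1.35, SE 0.19, edgeR adjusted p = 0.000255). SKP2, which marks p27 for destruction, was at 53.2, 57.2 and 47.1 CPM in RFP, at 27.5, 29.6 and 31.3 CPM in Kir2.1, and at 5.21 and 12.5 CPM in those labelled Kv1.5. It thus fell together with CDKN1B, the gene of its substrate. The fall of SKP2 was 0.83 on the log2 scale in Kir2.1, a call lost without any 1 of the 6 libraries compared (edgeR adjusted p = 0.0635 to 0.132).
In the libraries labelled Kv1.5 SKP2 fell by 2.57 (SE 0.33, edgeR adjusted p = 0.000131), with -3.33 from replicate 2 alone and -2.07 from replicate 3 alone. E2F2, an activating E2F factor, fell by 2.90 there (SE 0.29, edgeR adjusted p = 2.31e-05), while E2F5, a repressive one, rose by 1.72 (SE 0.28, edgeR adjusted p = 0.00065). CDK6 did not pass in any comparison. CDK4, the other kinase of the D cyclins, fell by 0.72 in Kir2.1 (SE 0.20, edgeR adjusted p = 0.0239). CDK2 and CDK4 lie on chromosome 12, from 55966769 and 57747727, before the first of the MDM2 neighbours at 57906039. Their own neighbours were not read, and the part of regional shifts in their changes was not tested.

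Of 21 transcription factors and chromatin proteins known to act on these genes, 1 rose and 3 fell in Kir2.1 against RFP, and 10 rose and 4 fell in the libraries labelled Kv1.5. These are 19.0% and 66.7% of the list, beside 20.5% and 33.7% of all genes. ID1 and ID3, which inhibit helix-loop-helix factors and are known to hold some CDKN genes down, fell in both. ID1 was at 132, 87.2 and 78.5 CPM in RFP, at 50.1, 37.5 and 41.1 CPM in Kir2.1, and at 6.19 and 16.0 CPM in those labelled Kv1.5, a fall of 1.21 (SE 0.31, edgeR adjusted p = 0.0164) and 3.16 (SE 0.39, edgeR adjusted p = 0.000123) on the log2 scale. The second value was -2.63 from Kv1.5 replicate 3 alone and -4.00 from replicate 2 alone. ID3 fell by 2.51 in Kir2.1 (edgeR adjusted p = 0.0122), a call lost without Kir2.1 replicate 2 or 3, and its RFP libraries ranged from 19.3 to 70.4 CPM. Without the highest of these, RFP replicate 1, the change was -1.75. Its fall of 2.59 in the libraries labelled Kv1.5 (edgeR adjusted p = 0.0141) was lost without Kv1.5 replicate 2 (edgeR adjusted p = 0.116).
FOXO4, of a family known to activate CDKN1B, rose in Kir2.1 (1.60, SE 0.25, edgeR adjusted p = 0.000761), where CDKN1B fell. TP73, a transcription factor gene, fell by 1.23 in Kir2.1 (SE 0.24, edgeR adjusted p = 0.00311) and changed by -2.77 in the libraries labelled Kv1.5 (SE 0.30, edgeR adjusted p = 4.06e-05). MYC, known as a repressor of CDKN1A, reached 652 and 1197 CPM in those labelled Kv1.5 and lay at 173 to 260 CPM in the other 6, so both genes were highest in the same group. The difference of MYC from Kir2.1 was 2.19 (SE 0.27, edgeR adjusted p = 0.00049), with 2.57 from Kv1.5 replicate 3 alone and 1.68 from replicate 2 alone. That of KLF4, which can activate CDKN1A, was 1.71 (SE 0.23, edgeR adjusted p = 0.000806). The part of any of these regulators in the changes of the genes described was not tested.

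**Figure D5:**
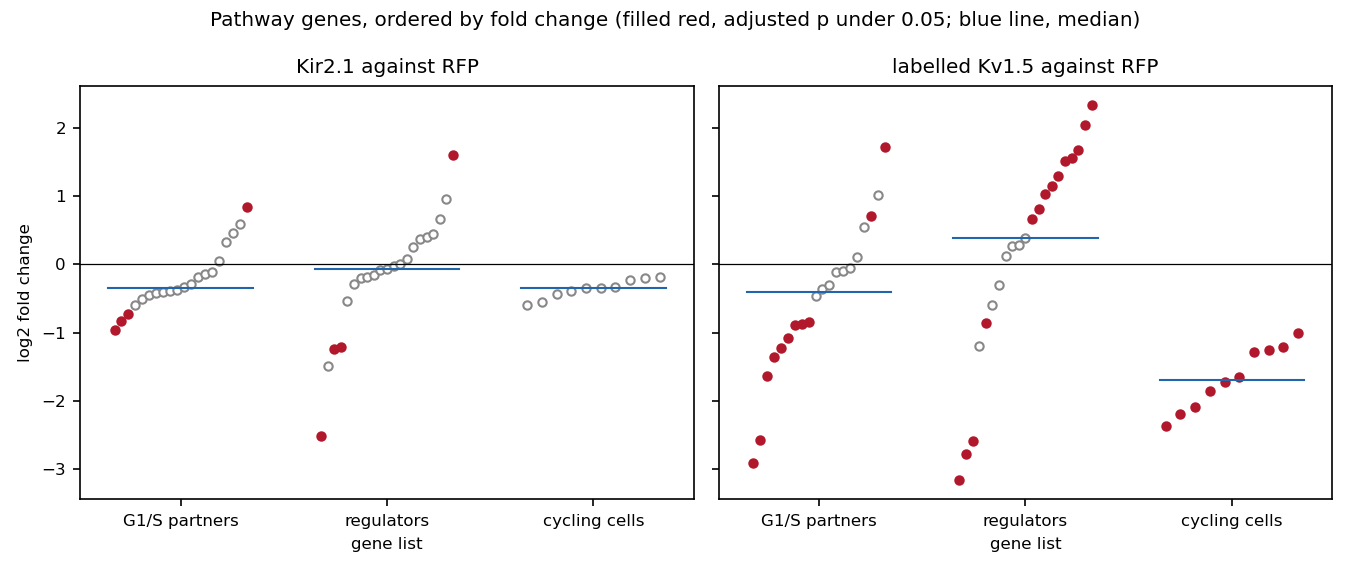
Log2 fold change against RFP of every tested gene of 3 lists (G1/S partners 20 genes, regulators 21, markers of cycling cells 10), ordered within each list. Filled red points passed an adjusted p under 0.05 and blue lines are medians; all 10 cycling markers passed and fell in the libraries labelled Kv1.5, and 0 of 10 passed in Kir2.1.

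Markers of cycling cells fell in the libraries labelled Kv1.5, where 5 of the 8 tested genes fell and 2, CDKN1A and CDKN1C, rose. All 10 markers fell there against RFP, beside 15.6% of all genes called lower. In Kir2.1 against RFP 0 of 10 passed by edgeR, DESeq2 or limma, beside 20.5% of all genes by edgeR, and 1 had an unadjusted edgeR p under 0.05. Their summed level was 4136 to 4505 CPM in RFP, 3161 to 3582 in Kir2.1, and 1768 and 773 CPM in replicates 2 and 3 of the libraries labelled Kv1.5. MKI67, the gene of the Ki-67 antigen, stood at 1108, 1021 and 863 CPM in RFP, at 672, 1001 and 954 CPM in Kir2.1, and at 319 and 67.7 CPM in those labelled Kv1.5 (-2.37 against RFP, SE 0.54, edgeR adjusted p = 0.00764). Of these 2 libraries, replicate 3 had the lower MKI67 and CDKN2C, and replicate 2 the lower CCND1 and CCNE2 and the higher CDKN1A. Against RFP, MCM5 (-2.19), a subunit of the replicative helicase, and TOP2A (-2.09), a DNA topoisomerase, had the next largest falls of the list. Against Kir2.1, 4 of 10 passed by edgeR (7 by DESeq2 and 7 by limma), all 4 lower, beside 7.99% of all genes called lower. MKI67 (-2.18), MCM5 (-1.99) and BIRC5 (-1.42) were furthest of the 4. MCM5 kept its call in all 17 alternatives, while MKI67 lost it without Kir2.1 replicate 2 or 3 (edgeR adjusted p = 0.0675 and 0.0639). BIRC5 lost its call in 8 of 17, among them each fit without 1 Kir2.1 library (edgeR adjusted p = 0.0638 to 0.0957). Against RFP, MKI67 was at -3.88 from replicate 3 alone and at -1.65 from replicate 2 alone. The part of this shift in the changes of CDKN2C, CCND1 and CCNE2 was not tested.

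Other genes with the most similar profile over the 8 libraries were named by the smallest root mean square difference of centred log2 CPM among 10695 genes. They were RRAGC, ZNF407-AS1 and RAB9A for CDKN1A (RRAGC differing by 0.14), ZFC3H1, RECQL and PPARG for CDKN1B, MAP3K10, MAGED2 and CA5B for CDKN1C, and MXD3, AFAP1L2 and ANK1 for CDKN2C. For the cyclins they were DNAAF5, PSPC1 and FUT10 (CCND1), QDPR, HDHD3 and LAP3 (CCND3), and PRIM1, STOM and SLF1 (CCNE2), and for MDM2 they were SENP1, ZNF90 and TMBIM6. RECQL is also among the chromosome 12 neighbours of CDKN1B described above, at 8.79 Mb, and ZFC3H1 among those of MDM2, at 2.86 Mb. The closest was QDPR to CCND3, at 0.05: QDPR stood at 31.7, 27.2 and 21.7 CPM in RFP, at 53.1, 44.0 and 34.6 CPM in Kir2.1, and at 37.5 and 38.7 CPM in those labelled Kv1.5. MXD3, closest to CDKN2C at 0.19, was likewise lowest in the libraries labelled Kv1.5, at 5.19 and 1.82 CPM against 14.0 to 27.2 CPM in the other 6.

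The authors' deposited table for Kir2.1 against RFP lists CDKN1A at a log2 fold change of 1.15 and CDKN1B at -1.05, and no other of the 10 genes among its 1139. The authors' deposited table for Kv1.5 against RFP, with 2178 genes, lists CDKN1A at 2.16, CDKN1C at 1.79, CDKN1B at -1.18, CCNE2 at -1.72 and CDKN2C at -2.30. These tables come from the same counts.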

How the data were processed

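Poly(A) RNA libraries made with a stranded kit were read single-end. The authors deposited raw counts per gene as whole numbers, and comparison tables with log2 fold changes, p-values and adjusted p-values. Per the submitters' processing notes, the tools were FastQC, Trimmomatic, STAR and edgeR (no versions) and the build GRCh38. No source used here gives the counter, the strand setting or the annotation release. A Kv1.5 replicate 1 is labelled and was not analysed here: 9 libraries were planned for and 8 were in the table.

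Counts were tested in R 4.3.3 with edgeR 4.0.16 (TMM scaling, filterByExpr by group, robust quasi-likelihood F-test). All 8 libraries entered 1 fit with group as the term, leaving 5 residual degrees of freedom, and p-values were Benjamini-Hochberg adjusted over 16687 genes. Standard errors came from the F statistic. RPKM used the merged length of all GENCODE 29 exons of a gene, such as 5802 bases for CCND3 and 13284 for MDM2. Orders and shares between genes rest on this choice. The test was also run on simulated counts with the spread of this fit and the same genes changed alike in both channel groups. That setting held far fewer changed genes than were called here. Symbols matched 60401 of 60715 genes, and positions 58484.

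The genes and lists were chosen with earlier results of these data known. Named by rule were the 10 genes, the 3 called genes with the largest change of each list per comparison, every gene of the list around CDKN2A, and, of the cycling markers, MKI67. CDK4, CDK6, CDKN2D in the libraries labelled Kv1.5, CCND2, CCNE1, ID1 in Kir2.1, INTS8, TUSC1 and COL1A1 were named after their values were seen. Results of 1 further list are not reported here. Alternatives were DESeq2 1.42.0, limma 3.58.1 (voom), upper quartile and RLE factors, other filters, only 2 groups in the fit, a block for the replicate number, leaving out each library and an adjusted p under 0.01.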

Additional observations from a re-analysis of the deposited data

How the results depend on the processing

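Over 17 alternatives and 24 pairs of gene and comparison, no log2 fold change of the 8 tested genes reversed, 12 of 14 calls held in every alternative, and values crossed the threshold downwards 7 times and upwards 12 times. The losses were CCND3 in Kir2.1 against RFP and CCND1 in the libraries labelled Kv1.5 against RFP. At an adjusted p under 0.01, all genes called numbered 1681 in Kir2.1 against RFP, 3123 in the libraries labelled Kv1.5 against RFP and 970 between them, beside 3418, 5624 and 2801. Leaving out 1 library at a time gave 1975 to 4519, 3912 to 5536 and 1384 to 3861 genes, and 4 to 6, 6 to 7 and 2 to 4 of the 8 genes described. The lowest came without Kir2.1 replicate 2 (1975 and 1384). Without RFP replicate 2 there were 2143 in Kir2.1 against RFP. Between Kir2.1 and the libraries labelled Kv1.5 there were 1859 without Kir2.1 replicate 1, 1493 without Kir2.1 replicate 3 and 1484 without Kv1.5 replicate 3, which also gave the 4 of 8. Where 1 library labelled Kv1.5 was left, it was assumed to vary like the other groups. Same-numbered libraries did not all deviate together (correlations -0.11 to 0.18 over 7 pairs, beside -0.22 to 0.14 for others). The RFP and Kir2.1 pairs gave 0.18, -0.09 and 0.16 for replicates 1, 2 and 3. Correlations with Kv1.5 replicate 2 are by construction the negatives of those with Kv1.5 replicate 3, so those pairs cannot decide. The numbers are thus not known to pair the libraries. With the replicate block, 3707, 5565 and 2729 genes and 6, 8 and 3 of the 8 genes passed, adding CCNE2 in Kir2.1 against RFP, CCND3 in the libraries labelled Kv1.5 against RFP (adjusted p = 0.0227) and CCNE2 between these and Kir2.1 (0.0267). With 2 or 3 libraries a group, the intervals printed are the limit on small differences.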
